A study of Rattus norvegicus with 32 samples.

Results

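Renal cortical RNA of 7 diabetic rats treated with Roux-en-Y gastric bypass and with a combination of rosuvastatin, ramipril, metformin and fenofibrate (RYGB-FMRR) was compared with that of 7 diabetic rats given sham surgery (SHAM). These 14 rats were chosen by the group labels out of 31 rats of the series with a table of counts, and 2 SHAM libraries whose totals lay under 1000000 reads were left out. A further RYGB-FMRR rat that the labels list, making 32 rats in all, was not analysed here. All 14 rats were of the Zucker Diabetic Sprague Dawley (ZDSD) strain, were male, were labelled as 37 weeks old and had received insulin shortly before surgery. In the SHAM rats the abdomen was opened and closed again. By the methods of the study this was done at a younger age than the bypass. The methods also give a fixed period from intervention to tissue collection, which cannot hold together with the same age label in both groups. Either time since surgery or age at collection thus differed between the groups, and whichever did cannot be told apart from treatment. In the RYGB-FMRR rats the bypass and all 4 drugs, which were mixed into the chow after recovery, were present together, so that no value below separates one drug from another. The 9 ZDSD rats with bypass and no drugs (RYGB) and the 6 Sprague Dawley rats that served as healthy controls (SD) are given beside them for context. Both of these groups were labelled as 37 weeks old as well. By the methods the bypass was done at an older age in RYGB than in RYGB-FMRR.

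Roux-en-Y gastric bypass diverts food past most of the stomach and the upper small bowel and lowers body weight and blood glucose. Fenofibrate activates the nuclear receptor PPARα, which in the proximal tubule of the kidney switches on genes for the uptake and oxidation of fatty acids. Metformin lowers glucose output by the liver, ramipril blocks the enzyme that makes angiotensin II, and rosuvastatin blocks the rate-limiting enzyme of cholesterol synthesis. The comparison asks how the diabetic renal cortex differs when surgery and these drugs are combined. The tables identify genes by Ensembl identifiers and do not pair them with names, and no table used here links these identifiers to symbols, so genes are described by identifier, by position on the rn5 assembly and by group. For the same reason the labelled tissue could not be checked against marker genes, and pathway lists could not be applied.

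Counts per library ranged from 19334717 to 25268442 in RYGB-FMRR and from 14502127 to 23995113 in SHAM. The means were 22793400 ± 2149390 and 19215300 ± 3483420 (SD, n = 7 each), which differed by an exact two-sided permutation test before adjustment (p = 0.0449) and not after adjustment over the 6 library measures tested (adjusted p = 0.0673). The number of genes with at least 1 read overlapped between the groups, at 17244 to 17587 in RYGB-FMRR and 17200 to 17742 in SHAM. In bulk tissue, fewer cells of a type and less RNA per cell cannot be told apart. The p-values measure the spread between rats, each of which gave 1 library.

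Of 14776 genes tested, 655 were higher and 1138 were lower in RYGB-FMRR than in SHAM, which is 4.43% and 7.7% of the genes tested. Called genes had an adjusted p under 0.05 in edgeR's quasi-likelihood test and differed by 1.3-fold or more. Most of these changes were under 2-fold. Among the higher genes the median fold was 1.54, with 300 of 655 (45.8%) under 1.5-fold and 135 (20.6%) at 2-fold or more, 40 of them at 4-fold or more. Among the lower genes the median fold was 1.601, with 442 of 1138 (38.8%) under 1.5-fold and 264 (23.2%) at 2-fold or more, 46 of them at 4-fold or more. The balance between the directions depended on how libraries were scaled. With libraries scaled to their total counts alone, 453 genes were higher and 1994 lower, so that the share of calls in the higher direction went from 36.5% to 18.5%, and the median of all tested genes moved from -0.01 to -0.13 on the log2 scale. The TMM factors behind the main scaling were 0.963 ± 0.022 in RYGB-FMRR and 1.05 ± 0.0377 in SHAM (SD, n = 7 each) without overlap (exact two-sided permutation test, p = 0.000583, the smallest it can give here, adjusted p = 0.0035 over 6 measures). Without SHAM rat 333 the counts were 576 higher and 896 lower, and without SHAM rat 340 they were 768 and 1336.

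**Figure D1:**
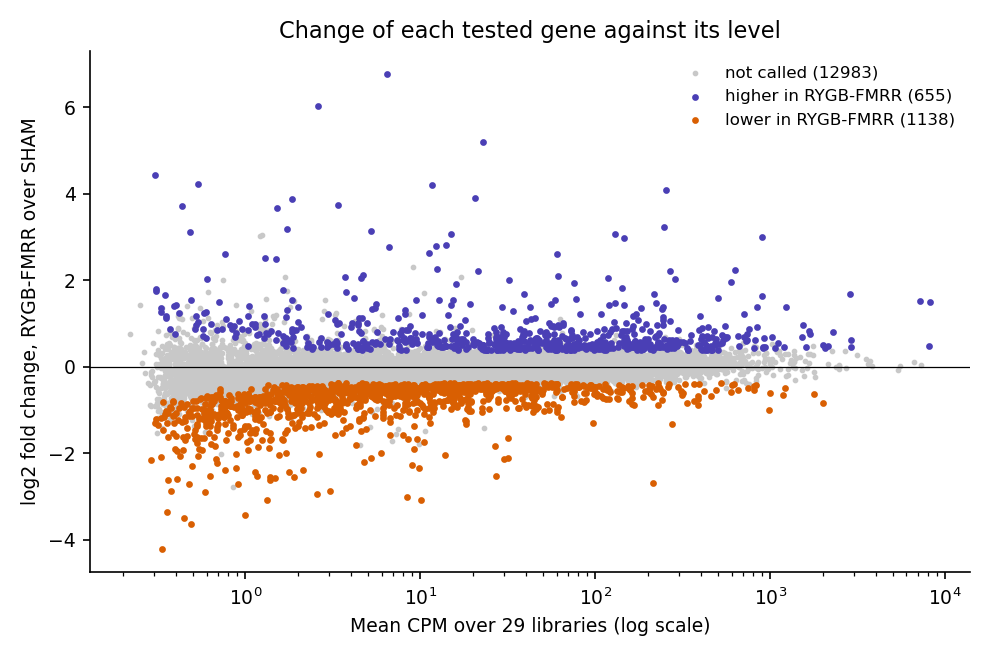
Log2 fold change of RYGB-FMRR over SHAM against the mean level of each of 14776 tested genes over 29 libraries, in CPM, the read count scaled by library size, on a log axis. The 655 higher genes lie further to the right, at higher levels, than the 1138 lower genes.

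The higher and the lower genes sat at different levels, given as CPM (counts scaled by library size). The median over genes of the mean level in RYGB-FMRR was 53.8 CPM for the higher genes and 4.37 CPM for the lower genes, and in SHAM it was 32.2 CPM and 7.10 CPM. Among the 80 genes at 1000 CPM or more on average, 20 (25.0%) were higher and 4 (5.0%) were lower. Among the 2208 genes between 100 and 1000 CPM, 194 (8.79%) were higher and 81 (3.67%) lower. The 4899 genes under 10 CPM held 181 higher and 701 lower genes, or 3.69% and 14.3%. Under total-count scaling the genes of 100 CPM or more held 154 higher and 149 lower genes, and those under 10 CPM held 141 higher and 1121 lower genes, so an excess of lower calls at low level was present under both scalings, while the excess of higher calls at high level nearly vanished under the second.

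The most abundant genes, summed, took a larger part of all counts in RYGB-FMRR. The 100 genes of highest mean level in the SD rats, a choice that uses neither compared group, held 18.6%, 19.7% and 20.4% of counts in the lowest, median and highest RYGB-FMRR rat. In SHAM they held 13.9%, 17.5% and 19.2%. The RYGB-FMRR rats lay above most SHAM rats, with an overlap at the edges. The means were 19.6 ± 0.592% and 17.1 ± 1.70% (SD, n = 7 each), a difference of 2.49 percentage points (exact two-sided permutation test, p = 0.00175, adjusted p = 0.0035 over 6 measures). The corresponding ranges were 17.1 to 19.2% in RYGB and 19.5 to 22.2% in SD. Since the genes were chosen in the SD rats, the SD range is raised by that choice. Of these 100 genes, 22 were called higher and 6 lower, beside 4.43% and 7.7% of all genes tested. These counts are near the shares among genes of like level, at 25.0% and 5.0% of the 80 genes at 1000 CPM or more. Under total-count scaling 12 of the 100 genes were called higher and 7 lower. The median log2 fold change of the 100 genes was 0.154, and 0.037 under total-count scaling. They include the gene of highest mean level of all, whose share of counts is given with the chromosome 5 run below.

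Calls also varied with the length of the gene. Of the 1478 genes in the decile with the shortest summed exons, 49 to 753 bases, 132 (8.93%) were higher and 102 (6.90%) lower. In the decile with the longest, 4498 to 27611 bases, 32 (2.17%) were higher and 137 (9.27%) lower. Among genes between 10 and 100 CPM the shares were 10.8% higher and 3.79% lower in the shortest decile, against 1.62% higher and 7.68% lower in the longest. The share of higher calls was the larger in the shortest decile under total-count scaling too, at 5.68% against 1.35%. The balance within the shortest decile turned round under that scaling, to 84 higher and 170 lower genes, and between 10 and 100 CPM it came to 31 of each. The log2 ratio of all counts on the longest decile to all counts on the shortest decile, taken per library, was 1.71 ± 0.133 in RYGB-FMRR and 1.79 ± 0.157 in SHAM (SD, n = 7 each), a difference that did not pass the exact permutation test (p = 0.357, adjusted p = 0.429). The highest SHAM value of this ratio was 2.14 in rat 333, and the next highest was 1.82. The part of this ratio in the calls was not tested.

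**Figure D2:**
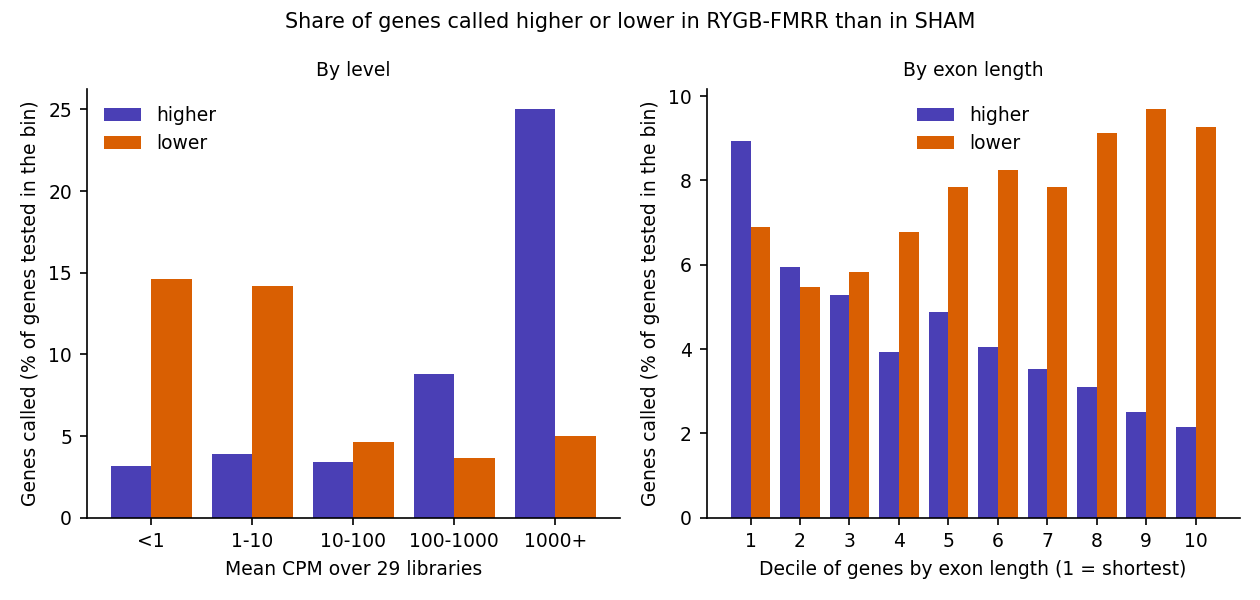
Percent of tested genes called higher or lower in RYGB-FMRR than in SHAM, by mean CPM over 29 libraries on the left and by decile of summed exon length on the right. Bars start at 0, higher calls reach 25.0% among genes of 1000 CPM or more, and lower calls exceed 14% among genes under 10 CPM.

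The genes given in full follow a rule, which takes in each direction the 2 genes with the smallest adjusted p among called genes whose rats do not overlap between the groups. What these genes encode is not stated in the tables. ENSRNOG00000008236, at chr5:34253236-34280749 (minus strand, rn5), has 10 exon blocks that sum to 1146 bases. Its level was 399, 416 and 465 CPM in the lowest, median and highest RYGB-FMRR rat and 111, 128 and 169 CPM in SHAM. Every RYGB-FMRR rat was above every SHAM rat by a factor of more than 2. The log2 fold change was 1.69 ± 0.09 (SE, adjusted p = 3.18e-13), or 3.23-fold. The RYGB rats spanned 108 to 159 CPM and the SD rats 146 to 234 CPM, so the RYGB-FMRR rats stood above all of these as well.

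ENSRNOG00000001770, at chr11:86024803-86057811 (plus strand), has 7 exon blocks that sum to 3101 bases. Its level was 2100, 2269 and 2965 CPM in the lowest, median and highest RYGB-FMRR rat, and 241, 291 and 440 CPM in SHAM. The gap between the groups was far wider than the range within either. The log2 fold change was 2.997 ± 0.17 (SE, adjusted p = 3.18e-13), or 7.98-fold. The RYGB rats, at 268 to 411 CPM, overlapped with SHAM, while the SD rats reached from 333 to 844 CPM.

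ENSRNOG00000002381, at chr14:12306370-12331030 (minus strand), has 3 exon blocks that sum to 2158 bases. Its level was 3.15, 3.77 and 4.52 CPM in the lowest, median and highest RYGB-FMRR rat and 12.7, 17.6 and 27.2 CPM in SHAM. All RYGB-FMRR rats were below all SHAM rats, with 64 to 104 reads each against 214 to 486. The log2 fold change was -2.26 ± 0.16 (SE, adjusted p = 1.95e-11), so SHAM was 4.80-fold higher. The RYGB rats, at 4.17 to 6.92 CPM, also lay below every SHAM rat, and the SD rats held 5.91 to 12.2 CPM.

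ENSRNOG00000011231, at chr19:55878687-55952179 (plus strand), has 12 exon blocks that sum to 2870 bases. Its level was 1.04, 1.82 and 3.31 CPM in the lowest, median and highest RYGB-FMRR rat, from 24 to 81 reads per library, and 9.64, 15.5 and 19.2 CPM in SHAM, from 163 to 476 reads. The groups did not overlap, and the RYGB-FMRR rats varied most among themselves of the 4 groups, with an SD of 0.58 on the log2 scale against 0.37 in SHAM. The log2 fold change was -3.02 ± 0.24 (SE, adjusted p = 2.02e-10), so SHAM was 8.12-fold higher. The RYGB rats held 4.81 to 11.5 CPM and the SD rats 7.15 to 11.7 CPM, and the RYGB-FMRR rats lay below all of them.

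**Figure D3:**
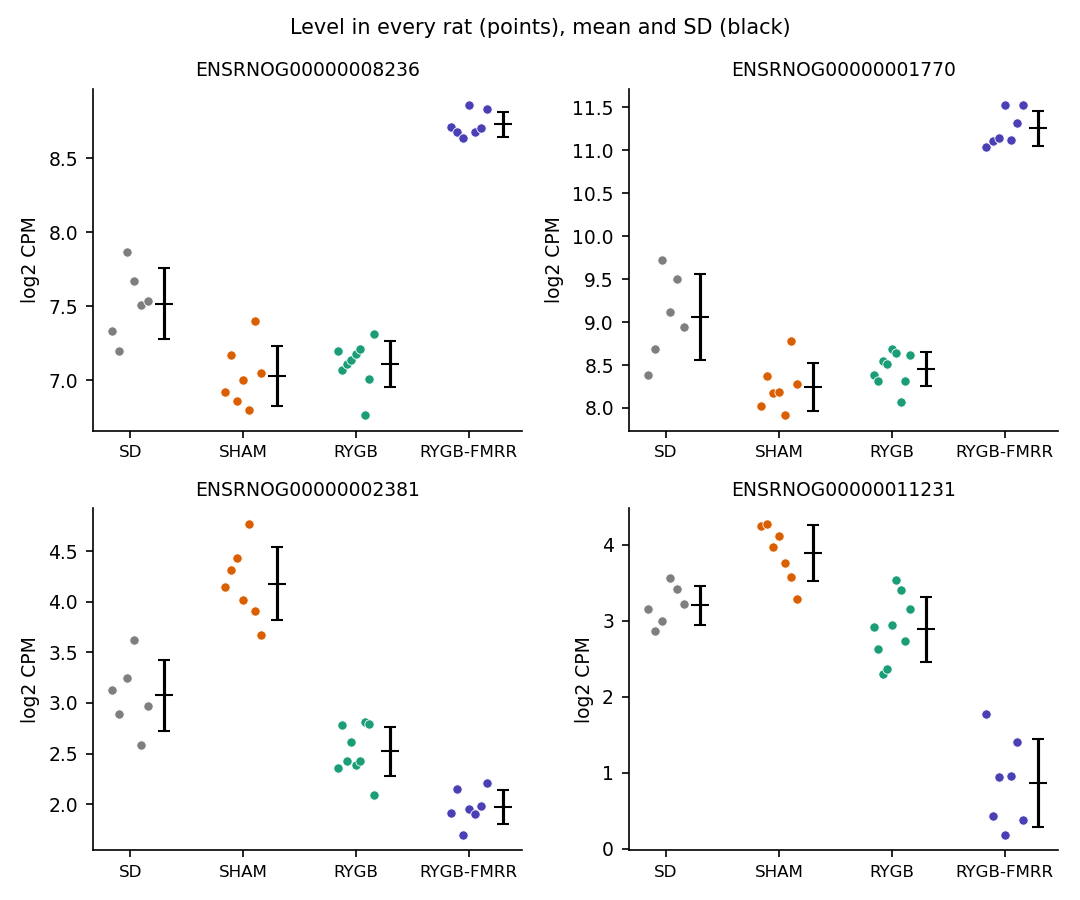
Level of the 4 named genes in every rat, as log2 CPM, for the 4 groups of rats, with the mean and SD in black beside the points. RYGB-FMRR rats stand apart from SHAM in all panels and from RYGB in all but the lower left panel, where the highest RYGB-FMRR rat (2.21) is above the lowest RYGB rat (2.09).

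The direct contrast of RYGB-FMRR with RYGB called 405 genes higher and 269 lower (2.74% and 1.82% of 14776). This contrast tests whether the 2 groups differ, and in it the drugs cannot be told apart from the age at bypass. Under total-count scaling the balance turned round, to 279 higher and 666 lower. It shares the RYGB-FMRR rats with the comparison above. For ENSRNOG00000008236 its log2 fold change was 1.62 ± 0.09 (SE, adjusted p = 1.24e-13), while RYGB over SHAM was 0.07 ± 0.09. For ENSRNOG00000001770 it was 2.80 ± 0.15 (adjusted p = 1.24e-13), while RYGB over SHAM was 0.19 ± 0.15. In both raised genes the estimated step between RYGB and RYGB-FMRR was nearly as large as the whole difference from SHAM. For ENSRNOG00000002381 the step between RYGB and RYGB-FMRR was -0.57 ± 0.15 (adjusted p = 0.0125), and RYGB over SHAM was -1.70 ± 0.14. For ENSRNOG00000011231 the corresponding values were -2.02 ± 0.23 (adjusted p = 1.91e-07) and -0.997 ± 0.20. By these estimates the larger step lay between SHAM and RYGB for the first of the lowered genes and between RYGB and RYGB-FMRR for the other.

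Over all called genes the medians of each contrast, which share rats with one another, were as follows. The 655 higher genes had a median log2 fold change of 0.62 against SHAM and 0.39 against RYGB, with RYGB over SHAM at 0.22. The 1138 lower genes had a median of -0.68 against SHAM and -0.26 against RYGB, with RYGB over SHAM at -0.40. The same genes had medians of -0.23 and 0.43 in SHAM over SD, a contrast that called 1562 genes higher and 1182 lower (10.6% and 8.0% of genes tested). The genes were chosen with the SHAM and RYGB-FMRR rats, and each of these contrasts includes at least 1 of these groups. All these medians are therefore a description, also those of RYGB over SHAM and of RYGB-FMRR over RYGB.

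Several called genes were neighbours. When tested genes were ordered along each chromosome, 113 of 655 higher genes (17.3%) and 272 of 1138 lower genes (23.9%) stood next to another gene called in the same direction. Of all 14776 tested genes, called or not, 8.51% stood next to a gene called higher and 14.5% next to a gene called lower. There were 7 runs of 3 or more higher genes and 19 of 3 or more lower genes. The members of these runs were found from their calls, so the sums below carry no test, and whether neighbours are similar copies that exchange reads could not be assessed from the tables.

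In RYGB-FMRR, the run with the most reads was one of 4 higher genes at chr5:137769866-138316870. Their summed level was 18060, 18646 and 22773 CPM in the lowest, median and highest RYGB-FMRR rat, against 3850, 6546 and 8615 CPM in SHAM. The lowest RYGB-FMRR rat was thus more than 2-fold above the highest SHAM rat. The RYGB rats spanned 5670 to 9702 CPM and overlapped with SHAM, and the SD rats spanned 10266 to 19254 CPM. One member, at 137989329 to 138000280 with 13 exon blocks, had the highest mean level of all tested genes and alone took 1.18 to 1.45% of counts in RYGB-FMRR against 0.27 to 0.612% in SHAM. Its log2 fold change was 1.501. The next member along the chromosome, at 138259232 to 138316870 with 25 exon blocks on the minus strand, held 4848 to 6673 CPM in RYGB-FMRR against 1181 to 2223 CPM in SHAM, a log2 fold change of 1.69. A gene that lies inside it on the plus strand, at 138283579 to 138297977, went from 33.5 to 75.7 CPM in SHAM to 324 to 624.8 CPM in RYGB-FMRR, a log2 fold change of 2.97. Reads were counted by strand, and how many reads of the more abundant host gene reach the opposite strand was not tested. The remaining member, at 137769866 to 137799167, changed least, at 0.49. Against RYGB 3 of the 4 passed the test. Without SHAM rat 333, and under total-count scaling, 3 of the 4 were still called.

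A run of 4 higher genes at chr6:118006796-118083477, all on the minus strand within 76.7 kb, held 380, 459 and 529 CPM together in the lowest, median and highest RYGB-FMRR rat. In SHAM the sum was 181, 203 and 221 CPM, and in RYGB 165 to 238 CPM. The SD rats held 185 to 278 CPM, so that the RYGB-FMRR rats lay above all other rats. Their log2 fold changes over SHAM ran from 0.75 to 1.45, all 4 genes were without overlap between RYGB-FMRR and SHAM, and all 4 passed the test against RYGB, with log2 fold changes of 0.87 to 1.39.

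A run of 3 higher genes at chr4:165697844-165967275 joined 1 abundant gene with 2 genes of few reads. One of the latter, with 72 exon blocks at 165697844 to 165895140, was at or under 0.184 CPM in every SHAM rat and at 0.591 to 3.60 CPM in RYGB-FMRR. Its neighbour at 165896152 to 165913306 was at or under 0.123 CPM in SHAM and at 0.245 to 2.25 CPM in RYGB-FMRR. In RYGB and SD they stayed at or under 0.357 CPM and 0.158 CPM. Both passed the filter on low counts only through the RYGB-FMRR rats, where they are high, so they had to differ and their levels are a description. The third member, at 165937918 to 165967275, was abundant, at 392 to 510 CPM in RYGB-FMRR against 267 to 355 CPM in SHAM, a log2 fold change of 0.56 ± 0.07, and it passed the test against RYGB (0.75).

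Other runs of higher genes differed in where RYGB stood. At chr1:142395563-142488537, 3 genes summed to 144 to 215 CPM in RYGB-FMRR and to 40.7 to 63.8 CPM in SHAM. The RYGB rats held 37.0 to 70.0 CPM and the SD rats 54.8 to 125 CPM, and all 3 genes passed the test against RYGB. Their log2 fold changes over SHAM ran from 0.46 to 1.94, and 1 of the 3 was without overlap between RYGB-FMRR and SHAM. Under total-count scaling 2 of these 3 were still called against SHAM. At chr1:271502294-271615702, 3 genes summed to 497, 1296 and 2934 CPM in the lowest, median and highest RYGB-FMRR rat, to 227 to 452 CPM in SHAM and to 455 to 720 CPM in RYGB. Here the RYGB-FMRR rats varied more than 5-fold among themselves, and 2 of the 3 genes passed the test against RYGB. At chr7:70496894-70517707, 3 genes within 20.8 kb summed to 26.4 to 69.8 CPM in RYGB-FMRR, 7.33 to 21.3 CPM in SHAM and 18.9 to 80.3 CPM in RYGB, and 0 of the 3 passed the test against RYGB (smallest adjusted p = 0.103). At chr3:62092298-62434837, 3 genes summed to 8898 to 11006 CPM in RYGB-FMRR and 4583 to 8541 CPM in SHAM, with RYGB at 7964 to 10366 CPM, and 1 of the 3 passed the test against RYGB. Under total-count scaling only 1 gene of this last run was still called against SHAM.

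The longest runs of lower genes were both on chromosome 17. There 51 of 442 tested genes (11.5%) were lower, the highest share of any chromosome, and these 51 include the members of both runs. At chr17:45468539-45655399, 9 neighbouring genes were lower, 6 of them made of a single exon block. The end of this interval is that of a long member that starts at 45494208, and the interval held 13 tested genes in all. The summed exons of the 9 had a median of 411 bases. Their summed level was 61.6, 71.0 and 74.7 CPM in the lowest, median and highest RYGB-FMRR rat and 81.2, 96.8 and 151 CPM in SHAM, without overlap. Most of this sum came from the member at 45494208 to 45655399, of 2 exon blocks. It alone held 41.2 to 50.3 CPM in RYGB-FMRR and 51.2 to 97.0 CPM in SHAM, and its log2 fold change of -0.46 was the smallest of the 9. The log2 fold changes ran from -2.02 to -0.46. Summed, the 9 genes spanned 65.5 to 108 CPM in the RYGB rats. Of them 0 passed the test against RYGB (smallest adjusted p = 0.194), where the median log2 fold change was -0.07. In SHAM rats 311 and 333 the sum was 138 and 151 CPM, and in the other 5 it was at most 105 CPM. Without SHAM rat 333, 7 of the 9 were still called.

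At chr17:58672059-58710162, 7 neighbouring genes within 38.1 kb were lower, 6 of them again of a single exon block and with the same median summed exon length of 411 bases. They summed to 7.86, 10.7 and 12.9 CPM in the lowest, median and highest RYGB-FMRR rat and 13.0, 16.5 and 32.2 CPM in SHAM. The groups met without overlapping. Rat 311 held the highest SHAM value and rat 333 the next, at 25.0 CPM. The log2 fold changes ran from -1.05 to -0.78, and 0 of the 7 passed the test against RYGB (smallest adjusted p = 0.0652). With 2 surrogate variables in the model 3 of the 7 were still called, and 7 of the 9 in the run before.

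The sums of the runs of 4 and 5 lower genes overlapped between the groups, while of the 14 runs of 3 lower genes 8 had sums without overlap and 6 did not. At chr10:69956876-70069233, 5 genes summed to 26.6 to 48.0 CPM in RYGB-FMRR and 40.8 to 77.2 CPM in SHAM. At chr11:41305970-41613792, 5 genes summed to 182 to 281 CPM and 243 to 465.7 CPM. The member at 41574416 to 41613792, which changed least (log2 fold change -0.46), alone held 153 to 267 CPM and 200 to 434 CPM. At chr3:111483682-111874846, 4 genes summed to 34.7 to 60.1 CPM and 52.3 to 114 CPM, and here the SD rats, at 27.1 to 44.3 CPM, lay below all SHAM rats. Of these 14 genes 1, in the chromosome 3 run, passed the test against RYGB.

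**Figure D4:**
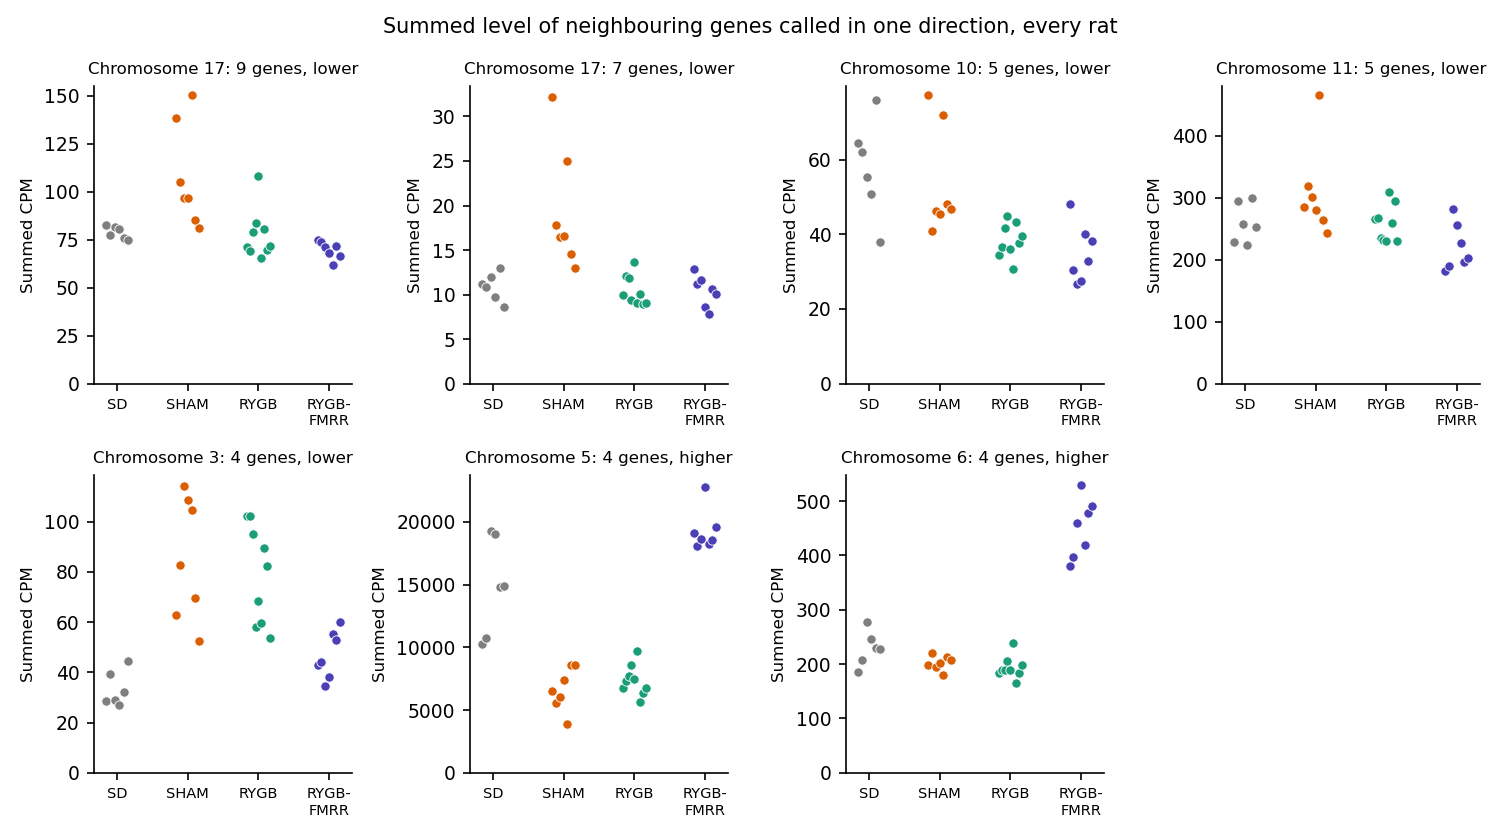
Summed level, in CPM on axes that start at 0, of the genes of each run of 4 or more neighbours called in one direction, for every rat of the 4 groups. In the chromosome 5 and chromosome 6 runs the RYGB-FMRR rats lie above SHAM and RYGB, and in the chromosome 17 runs RYGB lies largely beside RYGB-FMRR, while in the chromosome 3 run it lies with SHAM.

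The share of genes called differed between chromosomes. Higher genes ranged from 7 of 424 (1.65%) on chromosome 19 to 63 of 993 (6.34%) on chromosome 5. Lower genes ranged from 22 of 429 (5.13%) on chromosome 20 to the 11.5% of chromosome 17, which counts the members of its long runs. Chromosome 4, with 51 higher and 48 lower, was the one chromosome with more higher than lower genes. These shares are a description of position, without a test.

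With every rat included, the SHAM rats differed among themselves more than the RYGB-FMRR rats did, which did not hold without rat 333. The median over genes of the SD of log2 CPM was 0.188 in SHAM, 0.154 in RYGB-FMRR, 0.161 in RYGB and 0.166 in SD, and the SD was higher in SHAM than in RYGB-FMRR for 63.7% of tested genes. Without SHAM rat 333 that share was 48.0% over all tested genes, 62.3% over the lower genes and 53.6% over the higher genes. The median SD over all tested genes was then 0.15 in SHAM against 0.154 in RYGB-FMRR. Without rats 333 and 340 it was 0.137 in SHAM, and the SD was higher in SHAM for 42.0% of tested genes. Rat 333 was the highest SHAM rat for 29.03% of genes and the lowest for 29.4%, and rat 340 was the highest for 21.2% and the lowest for 21.7%. In the lower genes these rats lay at opposite ends. Rat 333 was the highest SHAM rat for 43.2% of the 1138 lower genes, and rat 340 was the lowest for 46.1%.

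To describe each rat with genes it had not helped to choose, the genes were called again without that rat, and the rat was placed on the line from the mean of the other SHAM rats, set to 0, to the mean of the other RYGB-FMRR rats, set to 1. The median position of the held-out RYGB-FMRR rats was 0.819, 0.937 and 1.01 in the lowest, median and highest rat, and each was nearer its own group for 81.3 to 88.4% of the genes. The held-out SHAM rats were at -0.288, 0.075 and 0.504 in the lowest, median and highest rat. The lowest was rat 333. The highest was rat 340, which was nearer its own group for 49.8% of 2104 genes, while the other SHAM rats were so for 66.9 to 92.4%. For the lower genes rat 340 stood at 0.606, on the RYGB-FMRR side of the middle, and for the higher genes at 0.281. The RYGB rats had median positions of 0.274 to 0.76, at a median of 0.41 for the higher and 0.564 for the lower genes. The SD rats had 0.299 to 0.663, at a median of 0.347 for the higher and 0.597 for the lower genes. The RYGB and SD rats were placed with the genes called from all SHAM and RYGB-FMRR rats used. Genes chosen to differ between SHAM and RYGB-FMRR can by that choice alone place another group between the SHAM and RYGB-FMRR means. The positions of RYGB and SD are therefore a description, and their nearness to either mean was not tested.

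**Figure D5:**
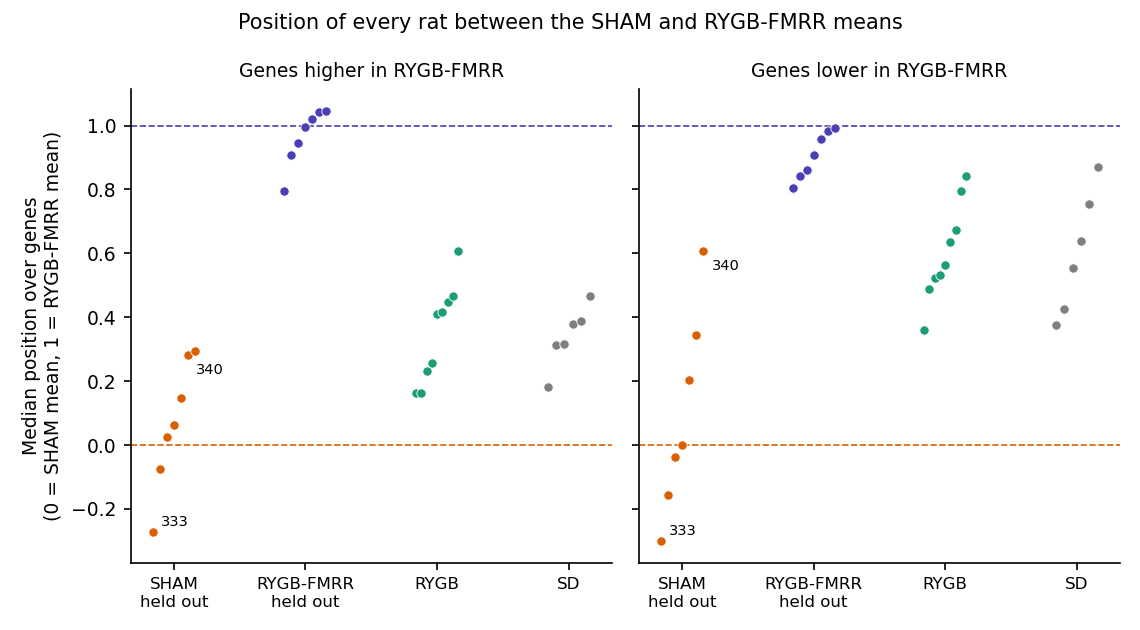
Median position of every rat between the SHAM mean (0, dashed) and the RYGB-FMRR mean (1, dashed), over genes called higher on the left and lower on the right, with rats of each group ordered by value. The SHAM and RYGB-FMRR rats were each placed with genes called without them, and SHAM rats 333 and 340 are labelled at the opposite ends of the lower genes.

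Overlap between the groups followed the same 2 directions. RYGB-FMRR lay above SHAM in every rat for 508 genes (3.44% of genes tested) and below it in every rat for 347 (2.35%). Without rat 340 the count of genes with every RYGB-FMRR rat below SHAM was 629, and without any other single rat of the 14 it was 364 to 439, which includes the gain from having 1 rat fewer. The corresponding counts above SHAM were 649 without rat 340 and 516 to 610 without another. Among called genes, 352 of 655 higher (53.7%) and 279 of 1138 lower (24.5%) were without overlap.

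The 2 SHAM libraries that were left out for their depth, 121511 reads in rat 343 and 101534 in rat 348, took no part in the choice of genes. Summed over the 655 higher genes they held 10.5% (95% exact binomial interval 10.4 to 10.7%) and 10.6% (10.4 to 10.8%) of counts on tested genes. The 7 SHAM rats used held 8.15, 9.73 and 10.9% as lowest, median and highest, and the RYGB-FMRR rats 15.3, 16.1 and 17.3%. Summed over the 1138 lower genes the left-out libraries held 5.02% (4.90 to 5.14%) and 5.33% (5.19 to 5.47%), beside 4.27, 5.73 and 7.14% in the SHAM rats used and 3.20, 3.35 and 3.50% in RYGB-FMRR. Both libraries thus lay within the range of the SHAM rats and outside that of RYGB-FMRR on both sums, and the intervals cover counting error only. The RYGB rats held 10.2 to 12.5% and 3.69 to 4.75%, and the SD rats 10.9 to 13.1% and 3.47 to 4.23%.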

How the data were processed

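Rats were grouped by the experimental group in the labels. Per the labels, RNA of renal cortex was sequenced with a stranded total RNA kit after removal of ribosomal RNA, and the authors trimmed the reads with Trim Galore, checked them with FastQC, aligned them to rn5 with STAR and counted read pairs per Ensembl gene on the reverse strand with featureCounts 1.6.4. The deposited values are raw counts for 26404 genes, with no normalization by the authors. All 37 genes of the mitochondrial chromosome were at 0 counts. No pair of libraries held the same values, and the closest pair of a group still differed by a chi-square of 5.59 per degree of freedom.

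Genes were filtered by filterByExpr (minimum count 10), scaled by TMM and tested with edgeR 4.0.16 under R 4.3.3 by the quasi-likelihood test, with all 4 groups (29 libraries) in one model and no covariate. P-values were adjusted by Benjamini-Hochberg over all 14776 tested genes, and genes were called at a fold change of at least 1.3 and adjusted p under 0.05. Standard errors of log2 fold changes were derived from the F statistic. CPM values use TMM-scaled library sizes, and log2 CPM a prior count of 2. Single values per library were compared by an exact permutation test, two-sided, over 6 measures. The script was tested on simulated counts. Alternatives were DESeq2 1.42.0, its size factors, total counts alone, no filter, other thresholds, the compared groups only, all 31 libraries, 2 surrogate variables (sva 3.50.0), limma 3.58.1 voom with quality weights, and leaving out each rat. Thinning every library to 14502127 reads was added after seeing the data.

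The comparison and its lists were chosen with earlier results of these data known. Named genes were meant to be those with symbols. As identifiers had no symbols in the tables used here, the rule gave the 2 genes in each direction with the smallest adjusted p among called genes without overlap between groups, and gene lists, cell type markers and sequences were not used here. Runs of neighbours, their background and the held-out positions were chosen after values were seen. Exact binomial intervals are at 95%.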

Additional observations from a re-analysis of the deposited data

Results flagged for a closer look

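Rat 333 stood apart from the other SHAM rats in 2 library measures, by the gap to its nearest neighbour relative to the range of its group. Its log2 ratio of counts on the longest decile of genes to counts on the shortest was 2.135, with the next SHAM rat at 1.821. Its TMM normalization factor was 1.123, with the next at 1.055. In all, 32 sets of values were examined this way, and chance sets apart a rat in about 1 in 20 sets. Without rat 333, which is replicate 5 of SHAM, 1472 genes were called, 576 higher and 896 lower. The part of these measures in the calls was not tested.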

How the results depend on the processing

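For RYGB-FMRR compared with SHAM, 9 of 11 alternatives gave counts within 1.5 times the 1793 genes called, from 1490 with 2 surrogate variables to 2447 with total-count scaling. The threshold moved the count the most, to 3242 with the adjusted p-value alone and to 399 at a fold change of at least 2. Leaving out single rats gave 1472 to 2104. For RYGB-FMRR compared with RYGB the 674 genes became 1024 under limma voom, 1699 with the adjusted p-value alone and 130 at a fold change of at least 2, with 534 to 746 when single rats were left out, and total-count scaling gave 279 higher and 666 lower genes. For SHAM compared with SD the 2744 genes became 1822 with 2 surrogate variables and 5207 with the adjusted p-value alone, and total-count scaling gave 2502 higher and 784 lower. The thresholds change counts by their construction, and for the others the cause was not tested. The 4 named genes kept their direction and their call in all 23 alternatives each, with adjusted p-values of at most 1.11e-06. They were chosen by the smallest adjusted p in these same rats, so this carries no information on the other called genes. No paired analysis was possible because no rat is in more than 1 group and no label ties rats across groups. Alternatives for gene lists were not run, as identifiers had no symbols. Depth limits the genes of few reads, and copies that share reads could not be told apart.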
